A study of Rattus norvegicus with 56 samples.

Results

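miR-191a-5p and miR-425-5p are processed from a pair of hairpins that lie next to each other on the same strand of rat chromosome 8, within the span of the gene Dalrd3. The rule for choosing them took these 2 miRNAs by name out of the 367 mature miRNAs counted in rat hippocampus, to ask whether miRNAs of a shared transcript change together after traumatic brain injury (TBI). miR-425-5p was chosen by the TBI to sham differences of its counts, which an earlier analysis of these same libraries found to vary between post-injury intervals. Its injury differences are therefore described here without a test, while miR-191a-5p, which was added as the neighbour, is tested.

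The libraries came from the hippocampus of 56 rats, with 4 TBI rats and 4 sham rats at each of 7 intervals: 24 h, 2 w, 1 m, 2 m, 3 m, 6 m and 1 y. TBI rats received a fluid percussion injury, in which a pulse of fluid pressure strikes the brain, and sham rats had the surgery without the injury. Each library is a separate rat, and no further treatment or genetic change is named in the labels. Strain, sex and age are not given in the sources used here. If all rats had surgery at a similar age, those of a later interval were also older when the tissue was taken.

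A miRNA gene is first transcribed as a long primary transcript, from which the enzyme Drosha cuts a hairpin and Dicer then cuts the mature strand. Hairpins of a shared primary transcript are transcribed in equal number, but the mature strands can still differ in level, since cutting, loading into Argonaute and decay act on each of them separately. miR-191 is widely expressed and is often used as a reference miRNA in PCR assays. miR-425 is known for repressing the mRNA of atrial natriuretic peptide.

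The mature sequences show what the pair does and does not share, and are given with the seed (bases 2 to 8, the part that pairs with target mRNAs) in capitals.
rno-miR-191a-5p: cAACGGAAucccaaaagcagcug
rno-miR-425-5p: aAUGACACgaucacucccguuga
The seeds AACGGAA and AUGACAC differ, and 5 of the 23 bases are the same at the same position. Among the other miRNAs tested that had a RefSeq sequence, 0 carried either seed. The hairpins, with the 5p arm in capitals, show where each mature strand sits.
miR-191 hairpin: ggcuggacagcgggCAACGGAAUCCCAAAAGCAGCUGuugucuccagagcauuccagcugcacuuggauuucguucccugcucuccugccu
miR-425 hairpin: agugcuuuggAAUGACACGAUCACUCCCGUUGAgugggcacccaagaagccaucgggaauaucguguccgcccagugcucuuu
In the RefSeq annotation of the GRCr8 build, the miR-191 hairpin is at chr8:118142627-118142717 and the miR-425 hairpin at chr8:118143084-118143166, both on the plus strand, with 366 bases between them. Both lie inside the span of Dalrd3, and whether they fall in an exon or an intron was not analysed here. The counts themselves carry no genome positions. miR-191b, which is cut from the opposite strand of the miR-191 locus, had at most 2 counts in any library and 20 over all 56. The 3p arms of both hairpins were not analysed here.

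The total count ranged from 69628 to 12468979 per library, and from 2083604 upwards without the shallowest, which is TBI replicate 1 at 2 m. Values are given as CPM, the count relative to library size, after scaling the 56 libraries together by TMM, a method that assumes most miRNAs do not change. Of the 7 neuron-enriched miRNAs listed as a check of the tissue, 6 were counted, led by miR-9a-5p at a median of 198736 CPM, and miR-128 was not analysed here. Each hippocampus is a mix of cells, so fewer cells of a type and less miRNA per cell cannot be told apart.

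miR-191a-5p was the more abundant of the pair in every library. Its level ranged from 11737 to 16406 CPM (median 14105) over the 56 libraries, with 1052 counts in the shallowest library and 193953 in the highest. On average it took 1.40% of the counts and ranked 16 by mean CPM among the 333 miRNAs detected. miR-425-5p ranged from 394 to 792 CPM (median 521), with 69 to 7893 counts, an average of 0.0541% of the counts, and rank 80. Adapter ligation in small RNA libraries favours some sequences, so the gap between the 2 levels is a gap in reads and not a ratio of molecules.

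The group means of miR-191a-5p lay within a 1.26-fold range over the 14 groups, from 12358 ± 375 CPM (SD, n = 4) in TBI rats at 2 w to 15584 ± 468 (SD, n = 4) in sham rats at 1 y. Those of miR-425-5p spanned 1.72-fold, from 431 ± 26.9 CPM (SD, n = 4) in TBI rats at 24 h to 741 ± 55.2 (SD, n = 4) in TBI rats at 2 m. In sham rats the order of the miR-191a-5p means, from low to high, was 6 m, 2 w, 1 m, 2 m, 3 m, 24 h and 1 y. For miR-425-5p the sham order was 24 h, 3 m, 2 w, 6 m, 1 m, 1 y and 2 m. In both orders the range of each interval overlapped with that of the next in all 6 steps, and intervals next to each other in the order were not tested against each other. In TBI rats the miR-425-5p order was 24 h, 6 m, 3 m, 2 w, 1 y, 1 m and 2 m, and 5 of the 6 steps overlapped. The exception was the step from 1 y to 1 m, where the highest rat at 1 y had 548 CPM and the lowest at 1 m had 585. These TBI values were part of the differences that led to the choice of miR-425-5p. How many other miRNAs have such a gap between intervals was not analysed here.

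**Figure D1:**
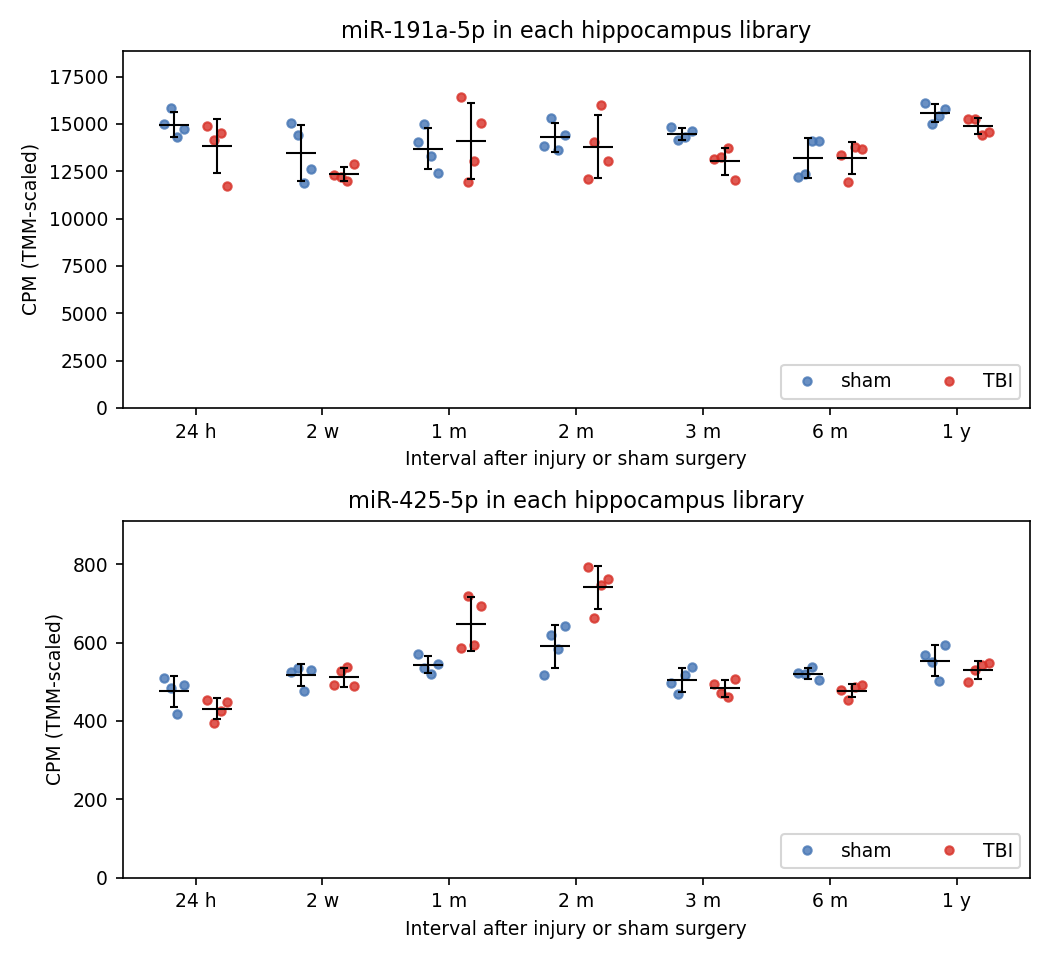
CPM (TMM-scaled) of miR-191a-5p and miR-425-5p in each library, by interval; blue points are sham rats, red points TBI rats, and the black lines are the mean and SD of each group of 4. miR-191a-5p stayed between 11737 and 16406 CPM, while the miR-425-5p group means were highest in the TBI rats at 1 m and 2 m (648 and 741 CPM).

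Whether injury changed the neighbour of miR-425-5p was tested at each interval with the quasi-likelihood test of edgeR, and p-values were adjusted over all miRNAs tested with 0.05 as the threshold. miR-191a-5p did not pass at any of the 7 intervals. Its log2 fold change (TBI over sham) was −0.11 (standard error 0.10) after 24 h, −0.11 (0.077) after 2 w and 0.093 (0.16) after 1 m, with adjusted p-values of 0.981, 0.723 and 0.798 in the quasi-likelihood test of edgeR. For the 2 m and 3 m rats it was −0.070 (0.13) and −0.11 (0.049), and the test gave adjusted p-values of 0.940 and 0.533. After 6 m it was −0.0055 (0.091), and after 1 y −0.078 (0.043), with adjusted p-values of 0.981 and 0.440. Few miRNAs of any kind passed this test: 1.72% of 233 at 24 h, 0.417% of 240 at 1 m, and 0 of the 220 to 236 tested at the other intervals.

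With TMM the 3 m interval was the only one at which the miR-191a-5p values of the groups did not overlap (with total count as the scale they did not at 1 y either). The sham rats were at 14846, 14140.1, 14299.5 and 14622 CPM, and the TBI rats at 13129.5, 13249, 13706 and 12046 CPM. All 4 TBI rats were thus below all 4 sham rats, as was also the case with the size factors of DESeq2 and with total count as the scale. With TMM, 4.51% of the 244 miRNAs had groups that did not overlap in either direction at 3 m, and 5.33% at 1 y. The shares with total count as the scale were not analysed here. The TBI libraries of this interval were also the shallower ones, with 2083604 to 4079505 counts against 3665721 to 7239854 in sham rats, and the part of depth in this difference was not tested.

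Averaged over the 7 intervals, miR-191a-5p was at a log2 fold change of −0.066 (standard error 0.033), with an unadjusted p of 0.0501 and an adjusted p of 0.314 in edgeR's quasi-likelihood test over 244 miRNAs. In that test 4.51% of the miRNAs passed. The injury effect on miR-191a-5p did not pass a test of differing between intervals either (6 interaction terms, F = 0.649, adjusted p = 0.901), where 2.87% of miRNAs passed.

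The injury differences of miR-425-5p, which led to its choice, were largest at 1 m and 2 m. At 1 m the sham rats were at 572, 536, 521 and 545 CPM and the TBI rats at 585, 719.5, 593.9 and 694 CPM. At 2 m the sham rats were at 516, 620.4, 583 and 641 CPM and the TBI rats at 792, 663, 747.3 and 762 CPM, the first of these TBI values being the shallow library with 69 counts. The lowest TBI rat thus exceeded the highest sham rat at both intervals. On the log2 scale the difference was 0.31 (standard error 0.17) at 1 m and 0.31 (0.15) at 2 m. It was 0.21 at 1 m without TBI replicate 2, and at 2 m it was 0.26 without the shallow library and 0.20 with total count as the scale.

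The order was the opposite at 6 m. There the sham rats had 522, 519.6, 537 and 504 CPM and the TBI rats 479, 452, 487 and 491 CPM, so that the highest TBI rat was below the lowest sham rat, and the log2 difference was −0.13 (standard error 0.095). Groups that did not overlap were found in 10.2% of miRNAs at 1 m, 4.92% at 2 m and 1.23% at 6 m. The gap between the groups at these intervals depended on the scale. With the size factors of DESeq2 the 4 TBI rats stayed on the same side of the sham range at all 3 intervals. With total count as the scale 2 of 4 were above all sham rats at 1 m and 2 of 4 below at 6 m, while at 2 m 2 were above and 1 was below all sham rats.

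At the other intervals the miR-425-5p values of the groups overlapped, as they did for all but 4.1% of miRNAs at 24 h, 4.92% at 2 w, 4.51% at 3 m and 5.33% at 1 y. At 24 h the sham rats were at 509, 483, 418 and 491 CPM and the TBI rats at 454.2, 394, 427 and 447, a log2 difference of −0.14 (standard error 0.12). At 2 w the sham rats were at 525, 535, 476 and 531 CPM and the TBI rats at 492, 527, 538 and 490.4. At 3 m the values were 496, 468, 517 and 537 against 494, 472, 460.6 and 507, and at 1 y 569, 551, 501 and 593.5 against 499, 529, 544 and 548. These 3 intervals had log2 differences of 0.0056 (0.073), −0.014 (0.091) and −0.075 (0.075), each about the size of its standard error or smaller. Over all 7 intervals the average was 0.024 (0.031).

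**Figure D2:**
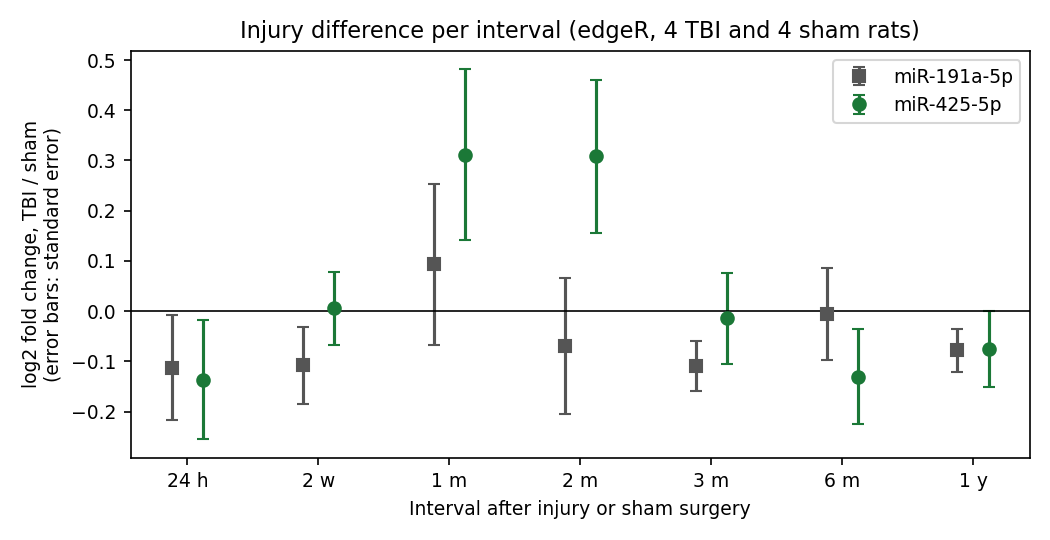
log2 fold change of TBI over sham rats at each interval for miR-191a-5p (grey squares) and miR-425-5p (green circles), from edgeR fits of 8 libraries each; bars are standard errors. The 2 miRNAs are at −0.11 and −0.14 at 24 h, whereas at 2 m miR-425-5p is at 0.31 and miR-191a-5p at −0.070.

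The ratio of the 2 miRNAs within a library does not depend on how libraries are scaled. It was expressed as miR-425-5p reads per 100 miR-191a-5p reads, and ranged from 2.79 to 6.56 (median 3.76). At 24 h it was 3.40, 3.05, 2.92 and 3.34 in the sham rats and 3.05, 2.79, 2.94 and 3.81 in the TBI rats, so that the groups overlapped. At 2 m it was 3.73, 4.05, 4.28 and 4.44 in the sham rats and 6.56, 4.72, 4.68 and 5.83 in the TBI rats, with every TBI rat above every sham rat. Of single miRNAs, 4.92% had groups that did not overlap at 2 m, and the share among other ratios was not analysed here.

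The highest ratio, 6.56, came from the shallow library and had an exact (Clopper-Pearson) 95% confidence interval of 5.06 to 8.37, which covers counting error only. On the log2 scale the TBI to sham difference of the ratio at 2 m was 0.39 (standard error 0.13), and 0.29 without the shallow library. At 1 m it was 0.21 (0.17), with 3 of 4 TBI rats above all sham rats and the fourth, at 3.566, just below the lowest sham rat at 3.574. At 6 m it was −0.13 (0.065), with 1 of 4 TBI rats below all sham rats. The differences of the log2 ratio for 24 h, 2 w, 3 m and 1 y were −0.021, 0.11, 0.092 and 0.0045. These differences use the injury contrast that led to the choice of miR-425-5p, and are given with no test.

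**Figure D3:**
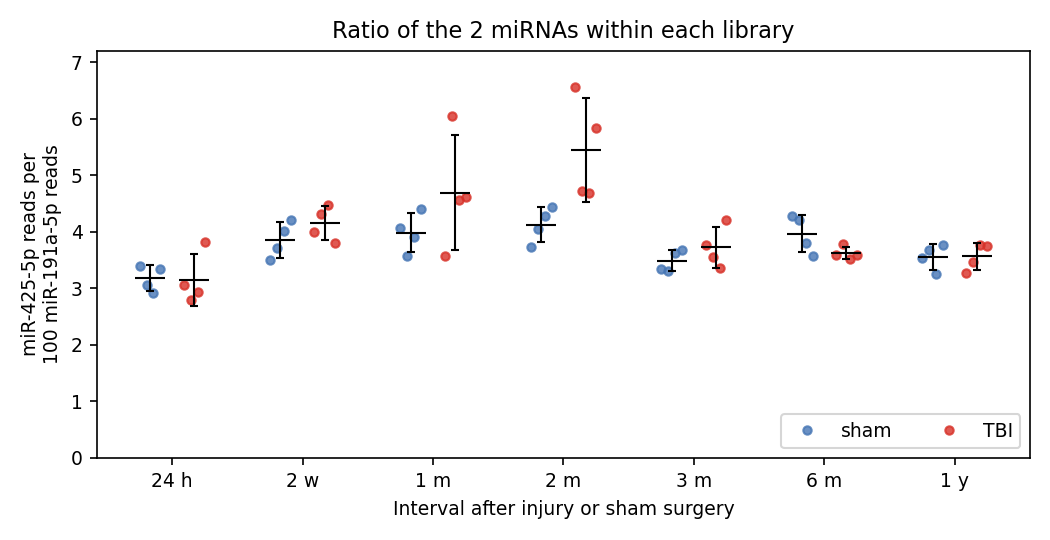
Number of miR-425-5p reads per 100 miR-191a-5p reads in each library, by interval; blue points are sham rats, red points TBI rats, and black lines the mean and SD of each group of 4. The ratio is lowest at 24 h (2.79 to 3.81) and the TBI rats at 2 m (4.68 to 6.56) lie above all sham rats.

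How the level changed from interval to interval, averaged over sham and TBI rats, was tested for both miRNAs, and then in the sham rats alone, since the average includes the TBI values at 1 m and 2 m. In the average, miR-425-5p differed between intervals (F = 20.5, adjusted p = 7.30e-10 in edgeR's quasi-likelihood test over 244 miRNAs). The TBI values in this average were part of the differences that led to the choice of miR-425-5p. Its p-value is therefore not independent of that choice. Relative to 24 h its level on the log2 scale was higher by 0.18 (standard error 0.057) after 2 w, by 0.39 (0.057) after 1 m and by 0.54 (0.058) after 2 m. It was higher than after 24 h by 0.13 in the 3 m rats, 0.14 in the 6 m rats and 0.26 in the 1 y rats, with standard errors of 0.057. These averages joined unlike steps. In sham rats miR-425-5p was higher than at 24 h by 0.19 (standard error 0.081) at 1 m and 0.31 (0.081) at 2 m, and in TBI rats by 0.59 (0.081) and 0.78 (0.083). In sham rats alone, a test added after the data were seen, miR-425-5p did not pass (F = 3.13, adjusted p = 0.0575 in the quasi-likelihood test), where 18.9% of miRNAs did. In the average over both treatments miR-191a-5p also passed (F = 3.29, adjusted p = 0.0203), but its differences to 24 h were −0.16, −0.049, −0.034, −0.066, −0.12 and 0.083 in the order of the intervals from 2 w to 1 y, each with a standard error of 0.062. The call for miR-191a-5p was lost without the filter on low counts (adjusted p = 0.0856) and when any of 25 of the 56 rats was left out. In sham rats alone its adjusted p was 0.194 (quasi-likelihood test of edgeR). In the average over both treatments 56.1% of all miRNAs passed, so a difference between intervals was common in these libraries.

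The ratio of the pair, averaged over sham and TBI rats, differed between intervals (F = 10.8, permutation p = 1e-05 with 100000 shuffles of the libraries within each treatment, the smallest value these allow). These shuffles also mix the TBI excess for which miR-425-5p was chosen. In the 28 sham rats alone the ratio also differed between intervals (F = 6.17, permutation p = 0.00076, added after the data were seen). Sham values were part of the TBI to sham differences that led to the choice of miR-425-5p. Tests in sham rats alone are therefore not independent of that choice. Relative to 24 h, the log2 ratio in sham rats was higher by 0.28 (standard error 0.079) after 2 w and 0.33 (0.081) after 1 m. For the sham rats of 2 m and 6 m the step was 0.38 (0.076) and 0.32 (0.080), and for those of 3 m and 1 y 0.14 (0.065) and 0.16 (0.070). Over the 8 libraries of an interval the ratio was 3.16 ± 0.334 (SD) after 24 h, 4.001 ± 0.326 after 2 w, 4.34 ± 0.798 after 1 m and 4.79 ± 0.947 after 2 m. In the 3 m, 6 m and 1 y rats it was 3.604 ± 0.296, 3.795 ± 0.295 and 3.56 ± 0.216. Of the 16 libraries at 1 m and 2 m, 7 were above all 40 others, and 23 of the 40 others were above the lowest of the 16. In sham rats the ratio at 24 h (2.92 to 3.40) did not overlap with that at 2 w (3.49 to 4.20), 1 m (3.57 to 4.39), 2 m (3.73 to 4.44) or 6 m (3.58 to 4.28). The 24 h range did overlap with that at 3 m (3.31 to 3.67) and at 1 y (3.25 to 3.76). Of single miRNAs, 56.1% differed between intervals in the average over treatments and 18.9% in sham rats. How often the ratio of other pairs of miRNAs differs or separates in this way was not analysed here.

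The libraries of 1 m and 2 m carry the numbers 21 to 28 in their titles and those of the other intervals 1 to 20. Each of the 28 numbers occurs in 2 libraries of the same interval, which are of the same treatment except at 1 y, where 4 numbers are each shared by a sham and a TBI rat. Since the numbers follow the intervals, interval, age and any difference in handling cannot be told apart. Summed levels of cell type markers at 1 m and 2 m are set beside those of the other intervals as a description. Their ranges overlapped in every list, and no test was run on them. Marker miRNAs of other cell types were counted as 5p arms, or without an arm for miR-486. The summed CPM of the 3 vessel wall miRNAs listed (miR-126a, miR-143 and miR-145) was 697 to 2077 (median 1419) at 1 m and 2 m and 861 to 1519 (median 1104) elsewhere. That of the 3 leukocyte and microglia miRNAs (miR-142, miR-150 and miR-223) was 814 to 1236 (median 931) against 955 to 2387 (median 1163). The 3 red blood cell miRNAs (miR-451, miR-144 and miR-486) were at 210.3 to 678 CPM (median 311) against 181.5 to 574 (median 271). The 2 oligodendrocyte miRNAs (miR-219a and miR-338) summed to 1481 to 2855 CPM (median 1966) against 1596 to 3315 (median 2202), and the 3 of the choroid plexus (miR-204, miR-211 and miR-448) to 1136 to 4435 (median 1793) against 1428 to 20830.4 (median 2411). The 6 neuron-enriched miRNAs summed to 140980.0 to 351990.0 CPM (median 207188) against 196689 to 309337 (median 248731). Several sums were carried mostly by their most abundant members. Median CPM was 961 for miR-150-5p against 146 for miR-142-5p, and 2136 for miR-204-5p against 60.8 for miR-211-5p. It was 1895 for miR-338-5p against 260 for miR-219a-5p, and 198736 for miR-9a-5p and 38526 for miR-218a-5p against 204 for miR-124-5p. How single members differed between these intervals was not analysed here. Every listed marker that was counted had reads, the lowest being miR-223-5p with a median of 0.537 CPM. The part of these cell types in the change of miR-425-5p was not tested.

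If the pair rose and fell together from rat to rat, rats high in miR-191a-5p for their group should also be high in miR-425-5p. This was tested on the deviation of each rat from the mean of its own group, which does not enter any difference between groups. Over the 56 libraries the deviations of log2 CPM gave r = −0.045 by Pearson, with a permutation p of 0.804 (1 after adjustment over 10 values of r). By Spearman rho was 0.012, with a permutation p of 0.938 (0.938 after adjustment). Without the 2 libraries with the largest deviations of miR-191a-5p, TBI replicate 2 at 1 m and TBI replicate 4 at 24 h, r was 0.13 (permutation p = 0.457).

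**Figure D4:**
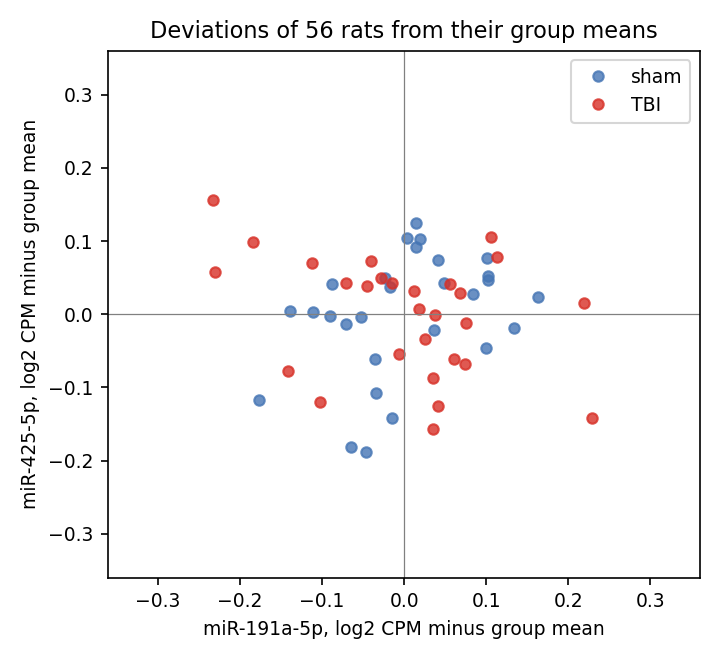
Deviation of each of the 56 rats from its group mean in log2 CPM, miR-191a-5p on the horizontal and miR-425-5p on the vertical axis; blue points are sham rats and red points TBI rats. The points show no common slope (Pearson r = −0.045).

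The value of r depended on the scale of the libraries. With the size factors of DESeq2 it was −0.012, but with total count as the scale it was 0.455 (permutation p = 0.0065). With total count the deviations of miR-191a-5p had a median r of 0.12 with all 243 other miRNAs, and those of miR-425-5p one of 0.17, against 0.046 and −0.046 with TMM. Among these 243, miR-425-5p ranked 37 by its r with miR-191a-5p on total count and 157 with TMM.

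Sham and TBI rats gave values of opposite sign. In the 28 sham rats r was 0.37 (permutation p = 0.0421, adjusted p = 0.421; rho = 0.39, permutation p = 0.0418, adjusted p = 0.4175). In the 28 TBI rats r was −0.36 (permutation p = 0.206, adjusted p = 0.689; rho = −0.33, permutation p = 0.194, adjusted p = 0.646). The difference between these 2 values was not tested. Within single intervals, over 8 rats each, r ranged from −0.375 at 1 m to 0.51 at 6 m with a median near 0, was positive at 3 of 7 intervals, and passed at none (exact permutation test over 576 arrangements, lowest p = 0.207, adjusted p = 0.689). Spearman rho within intervals ranged from −0.43 to 0.60, with adjusted exact permutation p-values of 0.646 or more.

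With TMM, miR-425-5p ranked 157 of 243 by its r with miR-191a-5p, and miR-191a-5p ranked 121 of 243 by its r with miR-425-5p. The miRNAs named next are those with the highest r among these 243. For miR-191a-5p the 5 highest values of r over the 56 libraries were 0.82 for miR-125a-5p, 0.64 for miR-125b-5p, 0.62 for let-7d-5p, 0.60 for miR-378a-5p and 0.55 for miR-346. For miR-425-5p they were 0.53 for miR-139-5p, 0.43 for miR-539-5p, 0.42 for miR-99a-5p, 0.404 for miR-378b and 0.37 for miR-504. miR-125a-5p was also the closest to miR-191a-5p with the size factors of DESeq2 (0.85), and miR-139-5p the closest to miR-425-5p (0.57). With total count as the scale these were replaced by miR-30c-5p (0.79) and miR-409a-5p (0.75). All these values share the libraries and their scaling, and are given as a description with no test.

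Neighbouring miRNA genes elsewhere in the genome show what the same measure gives for other pairs. A list of 34 pairs was drawn up from known neighbours, of which 32 had both miRNAs past the filter and 28 of these had mature sequences within 10000 bases of each other on 1 strand in GRCr8. Over the 28 pairs r had a median of 0.57 and ranged from −0.35 to 0.97. Of the 28, 25 were above the −0.045 of miR-191a-5p and miR-425-5p. Over all 32 pairs the median was 0.48, and 27 were above −0.045. For the pairs left out of the 28 no distance was obtained here. Their r was 0.20 (miR-30b with miR-30d), 0.26 (miR-99a with let-7c), −0.093 (miR-127 with miR-433) and −0.21 (miR-362 with miR-532). Over all 29646 pairs of the 244 miRNAs the median was 0.026, and 59.6% were above −0.045. The highest of the 28 were miR-34b-5p with miR-34c-5p at 0.97, miR-183-5p with miR-182 at 0.93, and miR-17-5p with miR-20a-5p at 0.90. The lowest of the 28 were let-7e-5p with miR-125a-5p at −0.35, miR-298-5p with miR-296-5p at −0.30, and miR-99b-5p with let-7e-5p at −0.14. The deviations of log2 CPM had an SD of only 0.114 for miR-191a-5p and 0.0937 for miR-425-5p. Counting error alone gave miR-425-5p a log2 SD of 0.016 to 0.17 per library. The spread of the other pairs was not analysed here, and its part in the values of r was not tested.

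With total count as the scale, r of the miR-191a and miR-425 pair rose to 0.455 and the median of the 28 pairs to 0.63, with 18 of them higher, while 11% of all pairs were higher. Several of the 28 pairs share a miRNA, and some of these miRNAs are made at more than a single locus, so the pairs are not independent of each other.

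**Figure D5:**
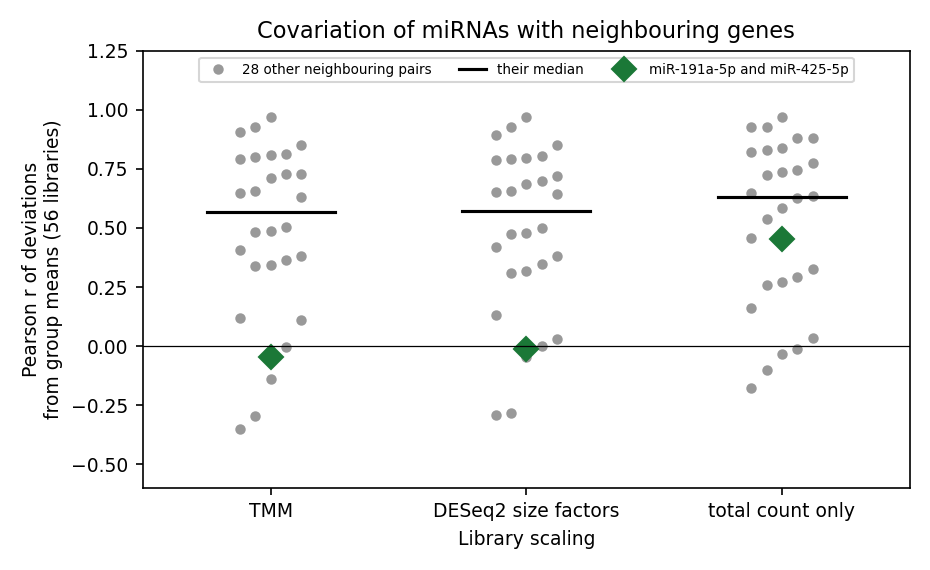
Pearson r of the deviations from group means over 56 libraries for 28 pairs of neighbouring miRNAs (grey points, black line at their median) and for miR-191a-5p with miR-425-5p (green diamond), under 3 ways of scaling libraries. The diamond lies near 0 with TMM and with the size factors of DESeq2, and at 0.455 with total count only.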

How the data were processed

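Small RNA libraries of 56 rat hippocampi were made by the authors with a NEBNext kit and sequenced on a NextSeq550. Adapter trimming and counting of mature miRNAs were done by the authors in miRDeep2 with miRBase as the reference, and bcl2fastq 2.20.0.422 is named in the submitters' processing notes. The deposited values are raw counts, not normalized, with 1 column per rat and 0 columns unused. How reads matching several miRNAs were divided is not given in the sources used here. Libraries were grouped by the labels for treatment and time, and replicate numbers follow accession order.

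Counts were filtered with filterByExpr, scaled by TMM and tested in R 4.3.3 with edgeR 4.0.16 (quasi-likelihood test, Benjamini-Hochberg adjustment over all miRNAs tested, threshold 0.05), per interval for injury and over all 56 libraries (244 miRNAs) for interval and interaction. Each standard error was obtained from the fold change and its F statistic. Levels are CPM from the joint scaling, and correlations used log2 CPM with a prior count of 2 and shuffles within groups. The log2 ratio used 0.5 added to each count. Tests were checked on simulated counts: of 30 miRNAs given a log2 change of 2, the test found 30 for injury at 24 h (233 miRNAs), 27 for the interaction and 28 for interval (244 miRNAs each), and of 30 changed by 1, 24, 19 and 27, with 1, 1 and 4 false calls. Smaller changes, such as those of this pair, were not simulated, so the check does not show how often they would be found. Alternatives were other scalings, filters and tests (DESeq2 1.42.0), prior counts of 0.5, and leaving out each rat. Sequences are from RefSeq (GRCr8), where both members matched by name. miRNAs named are the members, the 5 most alike to each, listed neighbouring pairs with the 3 highest and 3 lowest, and listed cell type markers. The members and lists were chosen with earlier results of these data known. Figures used Python 3.11.15 and matplotlib 3.10.9.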

Additional observations from a re-analysis of the deposited data

How the results depend on the processing

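The injury effect on miR-191a-5p was on the same side of the threshold in every alternative run (adjusted p from 0.374 upwards per interval, from 0.0972 for the average over intervals and from 0.759 for the interaction). Its direction turned only at 6 m, where the log2 fold change was 0.0080 with total count as the scale, 0.00082 in the joint fit, and between −0.064 and 0.049 with a rat left out. With a rat left out, its log2 fold change ranged from −0.139 to −0.037 (24 h), −0.159 to −0.043 (2 w), 0.0095 to 0.126 (1 m) and −0.142 to −0.026 (2 m rats). The miR-425-5p differences then ranged from −0.203 to −0.089 (24 h), −0.030 to 0.024 (2 w), −0.076 to 0.030 (3 m) and −0.121 to −0.017 (the 1 y rats). The interval effect on miR-425-5p passed in all alternatives that held both treatments (highest adjusted p 4.92e-07) but not in sham rats alone (0.0575), and that of the ratio passed in all (F from 9.70 to 12.2 with a rat left out). The interval effect on miR-191a-5p had an adjusted p of 0.0856 without the filter, 0.194 in sham rats alone, and up to 0.1003 with another library as the TMM reference, a choice added after the data were seen (7 of 56 references at or above the threshold). It was between 0.0083 and 0.118 with a rat left out. The call was lost without sham replicate 1 or TBI replicate 1, 2 or 3 at 24 h, sham 4 or TBI 1, 2 or 4 at 2 w, sham 1 or TBI 4 at 1 m, any sham rat or TBI 4 at 2 m, TBI 4 at 3 m, sham 1 or 2 or TBI 1 at 6 m, and sham 1, 2 or 4 or TBI 1, 2 or 3 at 1 y. The correlation of −0.045 turned to 0.455 with total count, 0.012 as Spearman rho, 0.37 in sham rats, 0.038 at 24 h, 0.38 at 2 w, 0.51 at 6 m, 0.13 without the 2 farthest libraries, −0.043 to 0.121 with a rat left out, and −0.091 to 0.21 over TMM references. The cause of these changes was not tested. Only at 1 y do sham and TBI rats share numbers in their titles, and no source ties these to a batch. The deviations of such pairs had r from 0.028 to 0.41, and 4 of 8 libraries correlated best with their own number. How many would do so without any link was not analysed here. With the number as a replicate block (added after the data were seen) miR-191a-5p was at −0.078 (adjusted p = 0.605). With and without the block 0 of 225 miRNAs passed, so this count cannot show whether the block matters. At the other intervals no paired analysis was possible because no number is shared by sham and TBI rats. A count of 69 limits the precision of miR-425-5p in the shallow library.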

Other observations

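A single rat lay far from the other 3 of its group, by Dixon's test, in 0 of the 42 groups examined (miR-191a-5p, miR-425-5p and their ratio, 14 groups each), where chance gives about 1 in 20.

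Across the 14 group means of log2 CPM, the miRNA closest to miR-425-5p was miR-221-5p, with r = 0.88, and miR-191a-5p ranked 74 of 243 with r = 0.13. For miR-191a-5p the closest by group means was let-7e-5p, with r = 0.61. These group means hold the injury contrast that led to the choice of miR-425-5p, and are given as a description.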
